A study of Mus musculus with 8 samples.

Results

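Neutrophil genes, 10 in number, were followed in lung RNA of 8 mice: the calprotectin subunits S100a8 and S100a9, the resistin-like Retnlg, the receptors Csf3r, Cxcr2 and Fpr2, and the granule genes Camp, Ngp, Mpo and Elane. They were chosen by gene symbol, and all 10 were found, on 12 of the 31465 spots that carry a gene symbol, among 20863 genes in all. Camp and Mpo were read by 2 spots each and the other 8 genes by 1. Of the 8 mice, 4 were wild type and 4 were Fra-2 transgenic, that is, overexpressing the AP-1 transcription factor Fra-2. All 8 shared the C57BL/6 background, were 8 weeks old and are labelled as lung, with no treatment named. Neither the promoter nor the cell type driving the transgene is given in the sources used here. RNA of each mouse was hybridised to 1 single-colour Agilent array, and every level below is the log2 of the normalised intensity. The median of all spots, 4.74, serves as a floor under which a level is dim and its order between mice is not read.

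Neutrophils are short-lived white cells of the blood that are made in the bone marrow under the growth factor Csf3 and its receptor Csf3r. They carry antimicrobial proteins in granules that are filled in a fixed order as the cell matures: Mpo and Elane transcripts belong to the earliest stages and Camp and Ngp transcripts to the middle ones. S100a8, S100a9, Retnlg, Cxcr2 and Fpr2 transcripts persist in mature circulating cells. The lung holds many neutrophils in its capillaries even in healthy animals, so whole lung RNA contains their transcripts.

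The promoters of 5 genes are shown: S100a8, S100a9 and Retnlg, the 3 with the most similar profiles over the mice, and Camp and Ngp, which had their highest level in the same mouse. Each line gives the 250 bases before the RefSeq start site on GRCm38.p6, 5′ to 3′ on the gene's strand. Capitals mark matches, on either strand, to TTNNGNAA (the C/EBP type), GAGGAAGT (the PU.1 type), TGANTCA (the AP-1 type) or TATAAA.
S100a8, chr3:90668821-90669070, plus strand: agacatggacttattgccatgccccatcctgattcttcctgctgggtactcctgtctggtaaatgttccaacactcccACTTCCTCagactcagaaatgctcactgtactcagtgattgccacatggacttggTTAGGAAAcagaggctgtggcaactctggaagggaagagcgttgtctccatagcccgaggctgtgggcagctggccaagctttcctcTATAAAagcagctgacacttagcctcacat
S100a9, chr3:90695722-90695971, minus strand: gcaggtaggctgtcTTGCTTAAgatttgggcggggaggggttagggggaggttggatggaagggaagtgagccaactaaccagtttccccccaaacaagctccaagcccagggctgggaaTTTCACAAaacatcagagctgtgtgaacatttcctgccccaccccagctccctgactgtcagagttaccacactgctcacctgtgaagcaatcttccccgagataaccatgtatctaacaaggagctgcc
Retnlg, chr16:48872358-48872607, plus strand: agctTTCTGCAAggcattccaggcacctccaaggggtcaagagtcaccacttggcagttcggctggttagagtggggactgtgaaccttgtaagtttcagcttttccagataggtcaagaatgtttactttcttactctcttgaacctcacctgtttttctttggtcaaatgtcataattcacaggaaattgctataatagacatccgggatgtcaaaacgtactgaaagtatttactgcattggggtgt
Camp, chr9:109849457-109849706, minus strand: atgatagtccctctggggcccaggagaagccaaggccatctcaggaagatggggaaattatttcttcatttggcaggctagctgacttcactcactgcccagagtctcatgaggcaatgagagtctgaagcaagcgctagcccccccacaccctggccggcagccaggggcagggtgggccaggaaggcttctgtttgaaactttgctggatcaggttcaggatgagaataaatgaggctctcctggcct
Ngp, chr9:110419558-110419807, plus strand: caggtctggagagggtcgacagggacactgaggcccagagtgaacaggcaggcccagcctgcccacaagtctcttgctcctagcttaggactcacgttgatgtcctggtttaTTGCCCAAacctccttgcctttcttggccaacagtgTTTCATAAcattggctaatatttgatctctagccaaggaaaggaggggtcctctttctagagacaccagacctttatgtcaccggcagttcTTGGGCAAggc
S100a8 held 1 match each to the C/EBP, PU.1 and TATA letters, S100a9 held 2, Retnlg 1 and Ngp 3 of the C/EBP letters, and Camp held no match. Promoters with the C/EBP letters made up 5 of the 10, against 36.8% of the 32851 RefSeq promoters searched over the same length. The PU.1 letters were found in S100a8, Mpo and Elane, 3 of the 10 promoters, against 2.44% of all promoters. The AP-1 letters were found in 0 of the 10 and in 6.75% of all promoters. A match is a run of letters and does not show that a factor binds there, and no match says only that these letters are not in this window.

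The arrays had the same median intensity (26.6), and each correlated with the other arrays of its group at 0.976 to 0.985 on average over genes, with the lowest values for wild-type mouse 4 (0.976) and transgenic mouse 4 (0.979). Wild-type mouse 4 gave the highest level of the 8 mice for 25.5% of the 14312 genes with a mean above the floor, and transgenic mouse 4 for 20.1%. The lung markers Sftpc and Scgb1a1 lay at the top of the scale, 16, in all 8 mice. The targeted gene, Fosl2, was read by 2 spots with log2 differences of -0.75 and 2.45 in opposite directions (limma adjusted p = 0.537 and 0.153 over all named spots). The spot with the positive difference read 3.44, 4.41, 4.65 and 5.58 in wild-type mice 1 to 4, with mice 1 to 3 under the floor. It read 6.35 to 7.85 in transgenic lungs, without overlap and in the direction of the labels. The groups did not overlap for 6.27% of all named spots. The other Fosl2 spot, the brighter, did not follow the labels. In whole tissue, a change in the number of neutrophils and a change in RNA per neutrophil cannot be told apart.

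Of the 10 genes, 0 passed the test between transgenic and wild-type lung (limma, Benjamini-Hochberg over all genes, threshold 0.05), where 45 of 20863 genes passed, 0.216% (0.125% higher and 0.0911% lower in transgenic lung). Of their 12 spots 0 passed either, against 0.178% of all named spots. At an unadjusted p under 0.05 the count was also 0 of 10, against 9.15% of all genes. The groups were separated, with no overlap, for 0 of the 10 genes against 6.53% of all genes, and for 0 of the 12 spots against 6.27% of all named spots. The differences, transgenic minus wild type on the log2 scale, were negative for 7 genes and positive for 3, from -0.56 (Retnlg) to 1.29 (Ngp). Exact two-sided permutation p-values ran from 0.229 (Retnlg) to 0.943 (Fpr2), where 4 mice against 4 can give 0.0286 at the least. The median difference of the 10 genes was -0.18, against 0.01 over all genes. The median turned to 0.06 without wild-type mouse 3 and was -0.015 without transgenic mouse 2. The intervals were wide: the 95% interval of the difference spanned 0 for all 10 genes, and it reached below -1 for S100a8, Retnlg, Cxcr2 and Fpr2 and above 1 for Cxcr2, Camp, Ngp, Mpo and Fpr2. For S100a9, Csf3r and Elane it stayed within 1 log2 unit, a 2-fold change, in either direction.

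**Figure D1:**
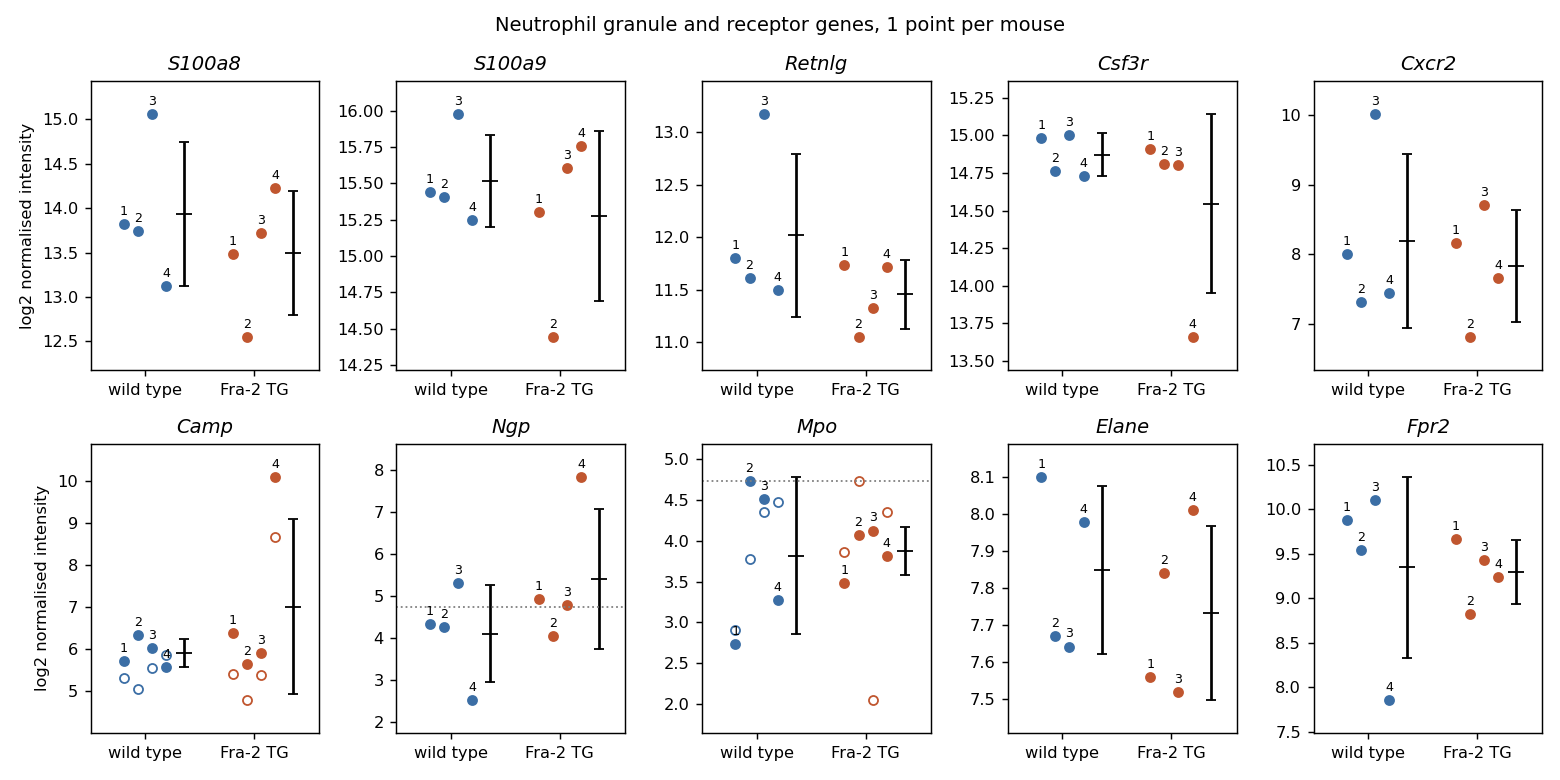
Log2 normalised intensity of the 10 genes in each mouse, with the mouse number above each point, wild type on the left and Fra-2 transgenic (TG) on the right of each panel. Filled points are the brighter spot of a gene, open points its second spot, black bars the mean ± SD of the filled points (n = 4 mice), and dotted lines the floor of 4.74; each panel has its own vertical axis. Wild-type mouse 3 is highest for S100a8, S100a9, Retnlg, Csf3r, Cxcr2 and Fpr2, and transgenic mouse 4 for Camp and Ngp.

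S100a8 and S100a9 encode the calcium-binding subunits of calprotectin, an abundant cytosolic protein of neutrophils that binds zinc and acts as an alarm signal when released. In wild-type lungs, mice 1 to 4 in order, S100a8 read 13.83, 13.74, 15.06 and 13.12, while transgenic lungs in the same order read 13.48, 12.55, 13.72 and 14.22. Wild-type mouse 3 was the highest and transgenic mouse 2 the lowest, and the other mice of both groups overlapped. The means were 13.94 ± 0.81 and 13.49 ± 0.70 (SD, n = 4 each), a difference of -0.44 (SE 0.47, 95% interval -1.51 to 0.63, limma adjusted p = 0.808). Without wild-type mouse 3 the difference was -0.069 and without transgenic mouse 2 it was -0.13, while it was -0.71 without wild-type mouse 4, -0.68 without transgenic mouse 4 and -0.96 without both.

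S100a9 repeated this order at both ends. Wild-type lungs read 15.44, 15.41, 15.98 and 15.25 and transgenic lungs 15.30, 14.44, 15.61 and 15.76. The top value lies close to the end of the scale at 16. The difference was -0.24 (SE 0.30, 95% interval -0.93 to 0.45, limma adjusted p = 0.844), and it turned to 0.037 without transgenic mouse 2. It was -0.089 without wild-type mouse 3, -0.40 without transgenic mouse 4 and -0.49 without both mice numbered 4. Over the 8 mice, the centred profiles of S100a8 and S100a9 differed by a root mean square of 0.34, among the 3 closest pairs of the 10 genes.

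Retnlg encodes resistin-like gamma, a secreted protein made by cells of the granulocyte line. Wild-type levels were 11.80, 11.61, 13.17 and 11.50, and transgenic levels 11.73, 11.05, 11.32 and 11.72. Wild-type mouse 3 stood 1.56 above the median of the other 7 mice, while the remaining mice lay within a narrow band in which the groups overlapped. The difference of -0.56 (SE 0.37, 95% interval -1.42 to 0.29, limma adjusted p = 0.691) became -0.18 without that mouse. Retnlg and S100a8 had the most similar centred profiles of any 2 of the 10 genes, with a root mean square difference of 0.33.

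Among the receptors, Csf3r, which binds the growth factor that drives neutrophil production, varied little in 7 of the 8 mice. The wild-type readings were 14.99, 14.76, 15.003 and 14.73, and the transgenic readings 14.91, 14.81, 14.81 and 13.66. Transgenic mouse 4 lay 1.15 below the median of the other 7, and the difference of -0.32 (SE 0.28, 95% interval -0.96 to 0.31, limma adjusted p = 0.766) became -0.028 without it.

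Cxcr2, the receptor for the chemokines that call neutrophils out of the marrow and into tissue, spread more than almost any gene. It read 8.00, 7.31, 10.01 and 7.45 in the wild-type lungs, against 8.16, 6.82, 8.70 and 7.65 in the transgenic lungs. Its SD within groups (1.05) lay at the 99.5th percentile of the 14312 genes with a mean above the floor. Wild-type mouse 3 exceeded the median of the other 7 mice by 2.35, a gap passed in that mouse by 0.0978% of genes above the floor. The difference of -0.36 (SE 0.64, 95% interval -1.83 to 1.11, limma adjusted p = 0.896) turned to 0.25 without that mouse and was -0.021 without transgenic mouse 2. It was -0.65 without wild-type mouse 2 and also without transgenic mouse 3, and -0.61 without wild-type mouse 4.

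Fpr2, a receptor for formylated bacterial peptides, serum amyloid A and annexin A1, read 9.88, 9.55, 10.10 and 7.86 in the wild-type lungs. The transgenic lungs read 9.67, 8.82, 9.43 and 9.24. Wild-type mouse 4 was the lowest, 1.68 below the median of the other 7, and the groups overlapped. The difference was -0.054 (SE 0.47, 95% interval -1.13 to 1.02, limma adjusted p = 0.987). Without wild-type mouse 4 it was -0.55 (limma adjusted p = 0.510) and without both mice numbered 4 it was -0.53. It was -0.18 without transgenic mouse 1 and -0.10 without transgenic mouse 3, and it turned to 0.12, 0.013 and 0.20 without wild-type mouse 1, 2 or 3 and to 0.10 without transgenic mouse 2.

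The granule genes did not share that pattern. Camp encodes cathelicidin, the precursor of an antimicrobial peptide of specific granules. Its brighter spot gave 5.71, 6.33, 6.03 and 5.58 for wild type against 6.39, 5.64, 5.91 and 10.10 for transgenic lungs, and its second spot 5.32, 5.05, 5.56 and 5.85 against 5.41, 4.80, 5.39 and 8.66. On both spots transgenic mouse 4 stood far above the other 7 mice, which overlapped. The brighter spot was 4.19 above the median of the other 7, the 14th largest such excess of 20863 genes in that mouse. The differences of 1.10 (SE 0.91, 95% interval -0.98 to 3.18, limma adjusted p = 0.754 over all genes) and 0.62 (SE 0.77, limma adjusted p = 0.844 over all named spots) did not pass, and without that mouse the brighter spot differed by 0.067.

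Ngp encodes neutrophilic granule protein, a relative of the cathelicidins in the same granules. Wild-type lungs read 4.34, 4.26, 5.30 and 2.54, transgenic lungs 4.94, 4.05, 4.79 and 7.83, and 4 of the 8 lay under the floor. Transgenic mouse 4 was again the highest, and the next level was the 5.30 of wild-type mouse 3. The fitted difference of 1.29 (SE 0.87, 95% interval -0.70 to 3.29, limma adjusted p = 0.696) became 0.48 without transgenic mouse 4 and 0.77 without wild-type mouse 4. It was 0.85 and 0.68 with an offset of 16 or 32 added before the log2, which shrinks differences between dim levels. With both mice numbered 4 left out, Camp and Ngp differed by -0.045 and -0.041.

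Mpo and Elane, the myeloperoxidase and the elastase of azurophil granules, did not stand out in transgenic mouse 4 as Camp and Ngp did. Both Mpo spots lay under the floor on all 8 arrays, from 2.74 to 4.73 on the brighter and from 2.06 to 4.73 on the other, so no order is read from them (differences 0.055 and -0.12, SE 0.44 and 0.60, limma adjusted p = 0.984 and 0.969 over all named spots). For Elane the wild-type levels were 8.10, 7.67, 7.64 and 7.98 and the transgenic levels 7.56, 7.84, 7.52 and 8.01. The groups overlapped, and the SD within groups of 0.23 was the smallest of the 10 genes. Its difference was -0.12 (SE 0.17, 95% interval -0.50 to 0.27, limma adjusted p = 0.869), the tightest interval of the 10. With 1 mouse left out it ran from -0.031 (without wild-type mouse 1) to -0.21 (without transgenic mouse 4).

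**Figure D2:**
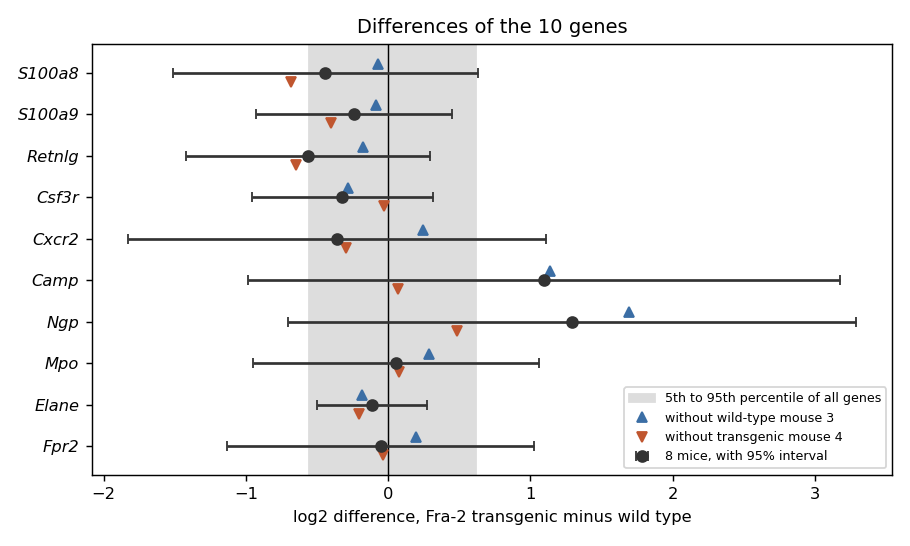
Log2 difference, Fra-2 transgenic minus wild type, for the 10 genes: circles and bars give the fit over 8 mice with its 95% interval, triangles the same difference without 1 mouse. The grey band holds the middle of all 20863 genes, from the 5th percentile (-0.56) to the 95th (0.62). All 10 intervals cross 0, and Camp moves from 1.10 to 0.067 when transgenic mouse 4 is left out.

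Several of the 10 genes had the same mouse at either end. Over the 9 genes with a mean above the floor, wild-type mouse 3 was highest for 6 (S100a8, S100a9, Retnlg, Csf3r, Cxcr2 and Fpr2), against 8.65% of all genes above the floor. Transgenic mouse 2 was lowest for 4 (S100a8, S100a9, Retnlg and Cxcr2), against 6.51% of all genes above the floor. Transgenic mouse 4 was highest for 2 of the 9, Camp and Ngp, against 20.1% of all genes above the floor, and lowest for Csf3r, against 21.6%. Wild-type mouse 4 was lowest for 3 of the 9, Camp, Fpr2 and Ngp, against 26.5% of all genes above the floor. For Ngp this place is not read, as 2.54 is under the floor. These counts for the mice numbered 4 are near the shares over all genes. The 2 mice numbered 4 also had the lowest correlations with their groups over all genes, and their part in these values was not tested. The excess of wild-type mouse 3 over the median of the other 7 ran from 0.20 (Csf3r) through 0.57 (S100a9), 0.67 (Fpr2), 1.34 (S100a8) and 1.56 (Retnlg) to 2.35 (Cxcr2).

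The genes outside the 10 whose centred profile over the 8 mice lay nearest that of S100a8, among 14312 above the floor, were Clec4d (root mean square difference 0.18), Clec4e (0.25), Nfkbid (0.26), Trem3 (0.28) and Sapcd1 (0.29). Clec4d and Clec4e encode lectin receptors of myeloid cells, Trem3 a myeloid receptor, and Nfkbid an inhibitor of the NF-kB family. Clec4d ranged over 9.65 to 11.87 among wild-type and 8.85 to 10.63 among transgenic lungs, with wild-type mouse 3 highest and transgenic mouse 2 lowest as for S100a8.

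The same measure, applied to Camp after its values were seen, gave Slc26a4 (0.38), Ccl24 (0.45), C530043A13Rik (0.46), Il6 (0.48) and Arg1 (0.51). Slc26a4 encodes the anion exchanger pendrin, Ccl24 an eosinophil chemokine and Arg1 an arginase of activated macrophages. Transgenic mouse 4 read 12.60, 10.06, 7.71, 8.38 and 9.09 for these 5. The highest reading in the other 7 mice was 8.94 for Slc26a4, 6.02 for Ccl24, 4.72 for C530043A13Rik, 5.51 for Il6 and 6.06 for Arg1. C530043A13Rik lay under the floor in those 7 mice. Its mean, 4.81, was above the floor only through transgenic mouse 4.

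**Figure D3:**
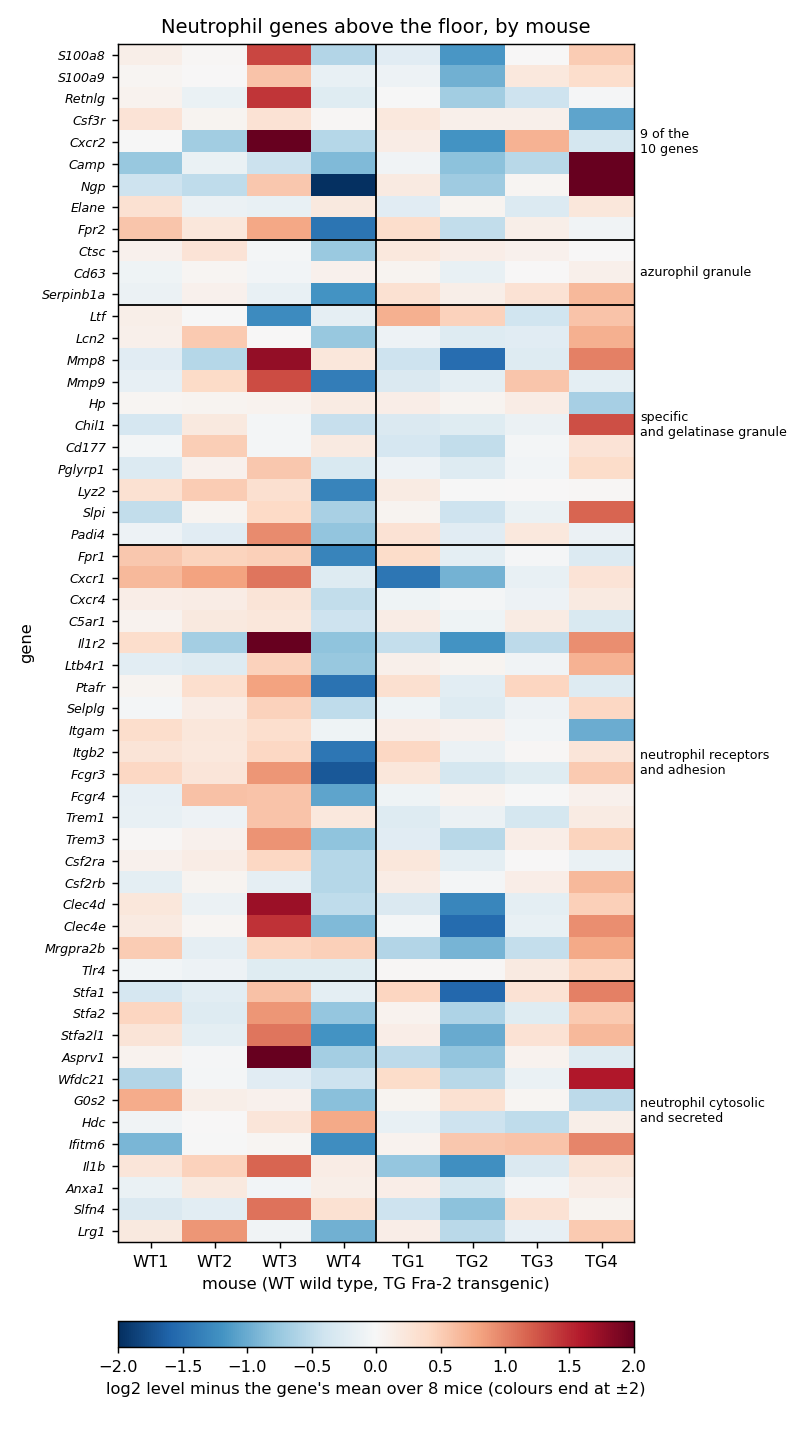
Log2 level minus each gene's own mean over the 8 mice, for genes of the neutrophil lists with a mean above the floor. Genes are grouped by list (black lines), and the genotypes are split by a vertical line. Red is above and blue below the gene's mean, and colours end at ±2. Wild-type mouse 3 is red for most receptors and transgenic mouse 2 blue for several mature neutrophil genes. Transgenic mouse 4 is dark red for Camp and Ngp, a lighter red for Chil1, Slpi, Mmp8 and Lcn2, and blue for Csf3r, Hp and Itgam.

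Other neutrophil genes were read from lists of granule proteins, oxidase subunits, receptors and cytosolic proteins, and 0 genes of these lists passed in either direction. Whole lung RNA does not show which cells a transcript came from, so the level of a listed gene need not report neutrophils. In the azurophil granule list 0 of 7 passed (median difference 0.0055, 1 at an unadjusted limma p under 0.05, 4 with a mean under the floor). Serpinb1a, an inhibitor of neutrophil serine proteases, differed by 0.69 (SE 0.28, limma adjusted p = 0.518) without overlap between the groups. It read 11.30, 11.50, 11.27 and 10.21 in wild-type and 11.72, 11.54, 11.70 and 12.06 in transgenic lungs. Wild-type mouse 4 was thus far below the rest, and the groups were narrowly separated. Ms4a3 (-1.09) and Prss57 (-0.37) had means under the floor, as did Prtn3 (0.37) and Ctsg (-0.11), named after their values were seen. Prss57, Prtn3 and Ctsg lay under it on all 8 arrays, as Mpo did and Elane did not. Of 14 specific and gelatinase granule genes 0 passed (median -0.044, 0 at an unadjusted limma p under 0.05). Ltf, the lactoferrin gene, differed by 0.67 (SE 0.36, limma adjusted p = 0.628), Cd177 by -0.30 and the dim Olfm4 by -0.58. Within the transgenic group, mouse 4 was not the highest for Ltf (10.99, against 10.02 to 11.14 in the other 3). It was the highest for other genes of this list, named after their values were seen: Chil1 (15.38, against 13.81 to 13.99), Slpi (13.81, against 12.22 to 12.70), Lcn2 (13.71, against 12.74 to 12.91) and Mmp8 (8.81, against 6.28 to 7.53). The highest wild-type readings were 14.30 for Chil1, 13.04 for Slpi, 13.54 for Lcn2 and 9.55 for Mmp8. For Mmp8 that reading, from wild-type mouse 3, was above transgenic mouse 4. Over all 8 mice, transgenic mouse 4 was highest for 3 of the 11 genes of this list above the floor (27.3%). The share over all genes above the floor was 20.1%. It was lowest for Hp (15.12, against 15.83 to 15.93 in the other transgenic mice), also named after its values were seen.

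Of 5 measured NADPH oxidase subunits, which make superoxide, 0 passed, and all 5 differences were positive but small, from 0.059 to 0.36 (median 0.19; 0 at an unadjusted limma p under 0.05). Rac2 (0.36), Ncf1 (0.22) and Cyba (0.12) had the smallest p. In 4 of these 5 genes wild-type mouse 4 was lowest, against 26.5% of all genes above the floor, and in 4 of 5 transgenic mouse 4 was highest, against 20.1%.

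In the list of receptors and adhesion molecules, 0 of 21 measured passed (median -0.040, 3 at an unadjusted limma p under 0.05). Cxcr1, the partner of Cxcr2 in binding neutrophil chemokines, read 6.92, 7.08, 7.34 and 6.01 for wild type and 4.83, 5.33, 6.12 and 6.54 for transgenic lungs. The difference of -1.13 (SE 0.42, 95% interval -2.10 to -0.16) did not pass over all genes (limma adjusted p = 0.472), and the groups overlapped because wild-type mouse 4 lay below transgenic mice 3 and 4. Tlr4, a receptor for calprotectin and bacterial lipopolysaccharide, differed by 0.32 (SE 0.13, limma adjusted p = 0.511) and Csf2rb, the shared chain of the Csf2 receptor, by 0.45 (SE 0.19, limma adjusted p = 0.541). Wild-type mouse 3 was highest in 13 of the 20 receptors above the floor, against 8.65% of all genes above the floor, and wild-type mouse 4 lowest in 12 of 20, against 26.5% of all genes above the floor for the latter. Fpr1, named after its values were seen, followed Fpr2 in being lowest in wild-type mouse 4 (8.66, against 10.43 to 10.52 in the other wild-type mice).

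Of 13 cytosolic and secreted neutrophil genes 0 passed (median -0.058, 2 at an unadjusted limma p under 0.05). Ifitm6 was 8.42 ± 0.65 in wild-type and 9.49 ± 0.38 in transgenic mice (SD, n = 4 each), a difference of 1.07 (SE 0.33, limma adjusted p = 0.370) without overlap. Il1b, the inflammatory cytokine, had the opposite sign at -1.01 (SE 0.35, limma adjusted p = 0.433), with transgenic mouse 4 (10.29) inside the wild-type range. Hdc, which makes histamine, differed by -0.47 (SE 0.22, limma adjusted p = 0.579).

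Ligands and growth factors of neutrophils were measured in 14 genes, of which 0 passed (median 0.47, 3 at an unadjusted limma p under 0.05). Cxcl12, which holds neutrophils in the marrow through Cxcr4, stood at 12.91, 12.90, 13.03 and 12.29 in wild-type and at 13.87, 14.16, 14.26 and 13.34 in transgenic mice, without overlap (1.12, SE 0.25, limma adjusted p = 0.193). Csf2 differed by 0.99 (SE 0.23, limma adjusted p = 0.217) and Ppbp by -0.74 (SE 0.16, limma adjusted p = 0.193), both without overlap. Csf3, the ligand of Csf3r, lay at 2.81 to 4.12 in wild-type and at 3.55 to 4.37 in transgenic mice, under the floor in all 8. Saa3, a serum amyloid A gene singled out after its values were seen, reached 11.56 in transgenic mouse 4, while the rest of that group spanned 7.65 to 8.35 and wild type 6.46 to 7.84 (1.84, SE 0.83, limma adjusted p = 0.565).

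Of 8 transcription factors of the granulocyte line 0 passed (median -0.39, 4 at an unadjusted limma p under 0.05). Cebpa, which starts the lineage, differed by -0.48 (SE 0.13, limma adjusted p = 0.305) and Cebpe, which drives the genes of specific granules, by 1.10 (SE 0.36, limma adjusted p = 0.406), each without overlap. Cebpe read 6.02, 6.02, 6.41 and 4.62 (the last under the floor) for wild type and 6.95, 6.86, 6.60 and 7.05 for transgenic lungs. Its relation to the levels of Camp and Ngp was not tested. Runx1 differed by -0.38 (SE 0.14, limma adjusted p = 0.468).

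Among 15 other S100 and resistin-like genes, relatives of S100a8, S100a9 and Retnlg that many lung cells express, 0 passed and 13 differences were positive (median 0.31, 4 at an unadjusted limma p under 0.05). S100a10 differed by 0.84 (SE 0.23, limma adjusted p = 0.296) and S100a6 by 0.31 (SE 0.11, limma adjusted p = 0.440), both without overlap, and S100a3 by 0.43 (SE 0.16, limma adjusted p = 0.465). S100a8, S100a9 and Retnlg, by contrast, had negative differences, and whether the relatives differed from them was not tested.

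Markers of other cells were read beside these genes. All 8 platelet genes had negative differences (median -0.52, 0 passed, 4 at an unadjusted limma p under 0.05), with Gp9 at -1.02 (SE 0.22, limma adjusted p = 0.193), Treml1 at -0.62 and Gp6 at -0.53. Their summed intensity was 5250 to 6706 in wild-type and 3350 to 5558 in transgenic mice. Wild-type mouse 3 was highest for 5 of these 8 genes, against 8.65% of all genes above the floor. Transgenic mouse 1 was lowest for 7 of the 8, against 7.05%. S100a8 was also highest in wild-type mouse 3, but lowest in transgenic mouse 2. Ppbp is also a platelet gene. Of 7 red cell genes 0 passed (median -0.16, 4 at an unadjusted limma p under 0.05; Hbb-bs -1.38, Alas2 -1.28 and Hbb-bt -0.67), with a summed intensity of 194777 to 214869 in wild-type and 142610 to 209896 in transgenic mice. Epb42, the other gene at that p, named after its values were seen, had the opposite sign (0.98) with a mean under the floor. Hba-a1, Hba-a2 and Hbb-bt, which lie at or near the end of the scale, dominate the sum. Transgenic mouse 4 was above the other 3 transgenic mice for Hbb-bs (13.01, against 11.05 to 11.78) and Alas2 (12.10, against 9.72 to 10.45). The part of blood content in the levels of the 10 genes was not tested.

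Of 8 monocyte genes 0 passed (median 0.097, 1 at an unadjusted limma p under 0.05; Ccr2 0.52, F13a1 0.26 and Treml4 -0.36), with a summed intensity of 66595 to 78846 in wild-type and 76279 to 81273 in transgenic mice. Of 9 alveolar macrophage genes 1 fell, Marco (-2.08, SE 0.22, limma adjusted p = 0.0105), while Car4 (0.20) and Mrc1 (0.28) did not pass and the list's median was 0.20. Wild-type mouse 4 was lowest for 6 of these 9 genes, as for many receptors above, against 26.5% of all genes above the floor. Their summed intensity was 48848 in that mouse, 87037 to 99340 in the other wild-type mice and 74462 to 108306 in transgenic mice. Of 8 eosinophil, basophil and mast cell genes 0 passed (median 0.23, 0 at an unadjusted limma p under 0.05; Il5ra 0.90, Ccr3 0.75 and Mcpt4 0.71). Wild-type mouse 4 was lowest for all 4 of them with a mean above the floor, against 26.5% of all such genes. Its levels there lay near or under the floor (4.09 to 4.91). Of 8 lung tissue genes 0 passed (1 at an unadjusted limma p under 0.05; Col1a1 0.52, Pecam1 0.48 and Cldn5 0.22).

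**Figure D4:**
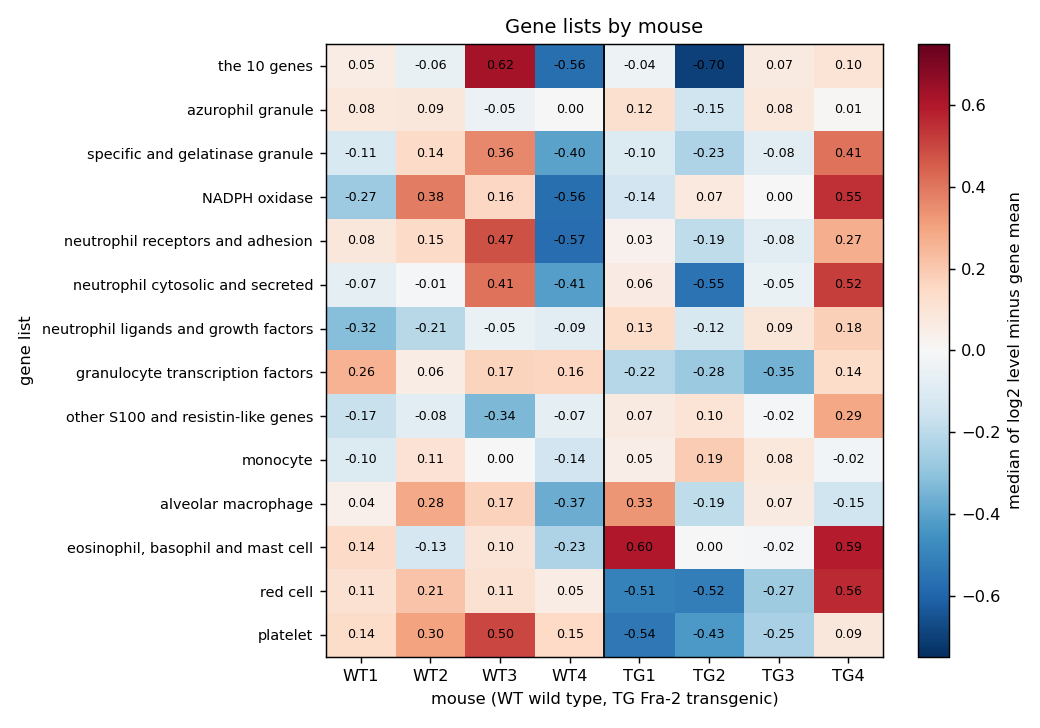
For each gene list (rows) and mouse (columns), the median over the list's genes of the log2 level minus the gene's own mean over 8 mice; red is above and blue below. The 10 genes have their highest median in wild-type mouse 3 (0.62) and their lowest in transgenic mouse 2 (-0.70). The platelet list is highest in wild-type mouse 3 (0.50), negative in transgenic mice 1 to 3 and lowest in transgenic mouse 1 (-0.54).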

How the data were processed

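Lung RNA was isolated with a peqGOLD kit and carried the dye Cy5 in Agilent's low-input protocol for 1 colour, per the labels' protocols. The authors deposited linear normalised intensity for 62976 spots per array. R 2.15.1 and limma 3.14.4 appear in the submitters' processing notes, with background correction and normalization not given in the sources used here. Medians (26.6) and means (1203) were equal across the arrays to 3 digits. No flags for saturated or dim spots were used here.

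Symbols came from the platform annotation: 31465 spots had 1 symbol, 0 had several and 31511 were unnamed here. RefSeq accessions (GRCm38.p6) matched 29050 of the named spots and replaced 2933 symbols. The spot with the highest mean stood for each of 20863 genes, 6086 of which had more than 1 spot. No offset was added before the log2, and limma 3.58.1 in R 4.3.3 (with the data.table package, version 1.17.8) fitted the values with genotype as the single term. Benjamini-Hochberg adjustment ran over all genes, and for single spots over all named spots. Figures used Python 3.11.15 and matplotlib 3.10.9. Simulated data with known shifts were used to test the fit.

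The 10 genes and the lists were chosen with earlier results of these data known. The rule for other named genes took called genes or the 3 smallest p-values of each list, and the 5 genes nearest S100a8. The labels number 4 samples per group, taken here as separate mice, so p-values measure the spread between these samples, and their number limits the precision. Deviations of same-numbered mice correlated at -0.012 to 0.051 over genes, the highest for the mice numbered 4. Those of other pairs across the groups correlated at -0.080 to 0.041. All were close to 0, and mice were not paired in the fit reported. Alternatives were offsets, scalings, a filter on dim genes, the mean of a gene's spots, other variance settings, a replicate block and mice left out. Some genes of the lists are not reported here.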

Additional observations from a re-analysis of the deposited data

Results flagged for a closer look

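Within groups of 4 mice, a value far from the other 3 by Dixon's test at its 95% critical value was found in 12 of 128 groups tested, 3 of them among the 24 groups of the 10 genes' spots; chance gives about 1 in 20 groups. The rate is not to be set against chance, since 3 of the 12 (Ccl24, C530043A13Rik and Il6) are genes taken for their likeness to Camp and Camp itself counts through both its spots. Transgenic mouse 4 was low for Csf3r (13.66, others 14.81 to 14.91) and high on both Camp spots (10.10, others 5.64 to 6.39, and 8.66, others 4.80 to 5.41). The same mouse was high for S100a10 (14.19), Il5ra (7.20), Ccl24 (10.06), C530043A13Rik (7.71, the others under the floor) and Il6 (8.38). Wild-type mouse 4 was high for Ms4a3 (6.40, the others under the floor) and low for Cxcl12 (12.29) and Ccr3 (4.09, under the floor). Wild-type mouse 2 was high for Marco (12.44, others 11.57 to 11.70).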

How the results depend on the processing

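Of the 10 genes and of their 12 spots, 0 passed under any of the 17 alternatives, and their median difference ran from -0.35 to 0.064. With 1 mouse left out it turned positive without wild-type mouse 3. The count over all genes, 45 in the fit reported, was 80 with an offset of 16 and 88 with an offset of 32 before the log2, 71 over the 14312 genes above the floor, 118 with a trend and robust variances, 5 with the replicate block, and 17 without both mice numbered 4; with 1 mouse left out it ran from 17 to 38 (17 without wild-type mouse 2, 20 when mouse 3 of either group was left out, 27 for wild-type mouse 1 and also for transgenic mouse 2, 29 without transgenic mouse 1, 35 when wild-type mouse 4 and 38 when transgenic mouse 4 was left out). The replicate block changed no call among the 10 genes, and whether the numbers pair the mice was not settled. Mpo, under the floor throughout, turned to -0.027 and -0.028 with the offsets and to -0.035 with the mean of its spots, and it has no value among the genes above the floor. Without both mice numbered 4, Camp was -0.045, Ngp -0.041 and Mpo -0.10, while S100a8 was -0.96, S100a9 -0.49, Retnlg -0.83 and Fpr2 -0.53. With 1 mouse left out, the difference ran from -0.30 to 0.36 for Mpo, from -0.55 to 0.20 for Fpr2, from -0.65 to 0.25 for Cxcr2 and from -0.40 to 0.037 for S100a9; the cause was not tested. Scaling to the 75th percentile and quantile normalization barely moved a value and left the count over all genes at 45. The deposited arrays already had nearly the same distribution of values, so these settings could not test the normalization. Elane, Csf3r, Retnlg and S100a8 kept a negative sign under all 17. Levels under the floor and close to the top of the scale limit Mpo, Ngp and S100a9.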
